A study of Mus musculus with 4 samples.

Results

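Voltage-gated ion channel genes were taken as the autosomal protein-coding genes of GENCODE M21 whose symbols begin with Kcn or Cacna, or with Scn followed by digits and an a. This rule found 118 symbols, of which 3 on the X chromosome were not analysed here, and left 115 genes among 20720 autosomal protein-coding genes. Their promoters took part in 305 of the 237102 interactions listed. The rule is wider than the name, since only 59 of the 115 genes were classed, by symbol, as voltage-gated pore-forming subunits. This class includes Kcnma1 and the Kv modifier genes (Kcnf, Kcng, Kcns and Kcnv). The other 56 were classed as inward rectifiers, 2-pore-domain and calcium- or sodium-activated potassium channels other than Kcnma1, or accessory subunits. These accessory subunits include the calcium channel alpha-2/delta genes, which are counted as a family of their own below. Kcnu1 was placed by its symbol with the calcium- or sodium-activated channels.

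The cells were bone marrow-derived macrophages (BMDMs) of C57BL/6J mice, grown for 7 days with M-CSF. The 2 basal samples were untreated, and the other 2 received 20 ng/mL IL-4, a cytokine of alternative activation, for 24 h. H3K4me3 HiChIP, which captures DNA contacts of chromatin carrying a histone mark of active promoters, was run on all 4. The values analysed here are a single list of interactions called on the merged reads of both conditions, so basal and IL-4-treated cells could not be compared, no value has a replicate error, no test was made, and how deeply each sample was sequenced is unknown. An interaction is a pair of 5-kb bins, 10 to 1000 kb apart, with an observed count of read pairs and a count expected by the authors' model, and at least 1 of the bins carried an H3K4me3 peak. A channel promoter could therefore be listed as a marked bin or only as the partner of another marked bin, and the 2 cases cannot be told apart here. Markers of the labelled cell type were also counted. All 6 macrophage markers had interactions, from 1 at Itgam to 42 at Mertk. Of the neuronal markers 1 of 4 had a single interaction, as did 1 of 5 muscle markers, no fewer than Itgam. Among all genes, 63.2% had at least 1 interaction. The marker lists were chosen with earlier results of these data known, so they are no independent check of the cell type.

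Potassium channels set the membrane potential by letting potassium leave the cell, and voltage-gated calcium and sodium channels carry the inward currents of excitable cells. Pore-forming Kv, calcium and sodium channel subunits are best known from neurons, heart and muscle. In macrophages, which fire no action potentials, inward-rectifying, calcium-activated, 2-pore-domain and a few Kv channels are known to shape the resting potential, calcium entry and potassium efflux.

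The promoters below are shown because they span the range of the channel genes, from the 3 with the most interactions to 2 Kv genes known from macrophages with none. Each runs from 250 bases before to 50 after a RefSeq start (GRCm38.p6), on the coding strand, with CG dinucleotides in capitals. They lie at chr11:111065914-111066213 (Kcnj2, plus strand), chr19:45816014-45816313 (Kcnip2, minus), chr7:100176420-100176719 (Kcne3, plus), chr3:107035912-107036211 (Kcna3, plus) and chr6:126535506-126535805 (Kcna5, minus).
Kcnj2: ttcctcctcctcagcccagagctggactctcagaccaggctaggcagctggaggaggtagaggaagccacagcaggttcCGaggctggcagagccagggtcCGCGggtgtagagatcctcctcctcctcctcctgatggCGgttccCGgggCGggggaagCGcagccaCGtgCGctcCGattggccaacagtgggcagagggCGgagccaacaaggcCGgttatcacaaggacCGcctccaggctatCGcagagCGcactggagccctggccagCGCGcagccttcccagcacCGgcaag
Kcnip2: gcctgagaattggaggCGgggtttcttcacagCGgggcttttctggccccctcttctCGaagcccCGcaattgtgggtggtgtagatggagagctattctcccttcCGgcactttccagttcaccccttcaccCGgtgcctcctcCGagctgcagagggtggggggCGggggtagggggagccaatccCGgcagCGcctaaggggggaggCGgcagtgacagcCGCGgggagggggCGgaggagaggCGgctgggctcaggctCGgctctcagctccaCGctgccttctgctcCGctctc
Kcne3: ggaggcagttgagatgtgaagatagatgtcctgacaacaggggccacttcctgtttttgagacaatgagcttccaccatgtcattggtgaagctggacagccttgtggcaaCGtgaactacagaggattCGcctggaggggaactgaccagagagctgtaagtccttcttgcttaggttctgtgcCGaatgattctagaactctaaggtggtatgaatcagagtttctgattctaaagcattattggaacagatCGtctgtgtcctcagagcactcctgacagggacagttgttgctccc
Kcna3: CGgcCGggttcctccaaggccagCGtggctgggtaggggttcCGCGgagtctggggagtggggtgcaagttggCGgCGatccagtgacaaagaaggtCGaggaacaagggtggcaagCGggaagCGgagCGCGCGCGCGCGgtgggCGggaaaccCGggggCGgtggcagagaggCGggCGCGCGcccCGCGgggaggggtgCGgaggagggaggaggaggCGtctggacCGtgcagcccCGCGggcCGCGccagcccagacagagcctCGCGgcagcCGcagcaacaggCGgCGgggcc
Kcna5: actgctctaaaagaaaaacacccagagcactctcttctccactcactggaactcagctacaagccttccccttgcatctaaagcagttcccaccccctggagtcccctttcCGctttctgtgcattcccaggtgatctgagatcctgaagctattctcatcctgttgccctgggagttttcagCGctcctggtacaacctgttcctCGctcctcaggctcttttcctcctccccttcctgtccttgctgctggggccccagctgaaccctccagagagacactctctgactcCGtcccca

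The Kcnj2 and Kcnip2 windows each held 18 CG dinucleotides, with a ratio of observed to expected CpG of 0.54. The Kcne3 window held 4 (ratio 0.23) and the Kcna5 window 4 (0.20), whereas the Kcna3 window held 37 (0.95). The window richest in CpG thus belonged to a gene listed at 0 interactions, and a CpG-poor window to the gene with the third most. The Kcnip2 window lies in the bin that held 2 of that gene's 20 interactions, next to the bin of an inner start that held 18. RefSeq windows were matched for 85 of the 115 genes.

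Of the 115 channel genes, 51 (44.3%) had at least 1 interaction, against 63.2% of all genes. Only 4 (3.48%) had at least 10, against 27.3% of all genes. The median was 0 interactions per channel gene and 2 over all genes, and the mean was 2.66 against 8.79. Between these ends, 18 channel genes had 1 interaction and 29 had 2 to 9. Requiring a partner bin without a start site of any gene left 40 channel genes (34.8%), against 55.2% of all genes.

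The shares were also taken by promoter CpG content. Among genes with a promoter CpG ratio of 0.6 or more, the class that holds most housekeeping genes, 19 of 48 channel genes (39.6%) had an interaction, against 81.2% of all genes of that class. Below 0.6, 32 of 67 channel genes (47.8%) had one, against 46.8% of all such genes. The lower share of the channel genes as a whole was thus found in the CpG-rich class. The 29 CpG-rich channel genes at 0 included all 5 KCNQ genes, 5 of 7 EAG and ERG genes, the neuronal sodium channel gene Scn8a, and Kcna3 and Kcnma1. All 4 CpG-rich inward rectifier genes had interactions.

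**Figure D1:**
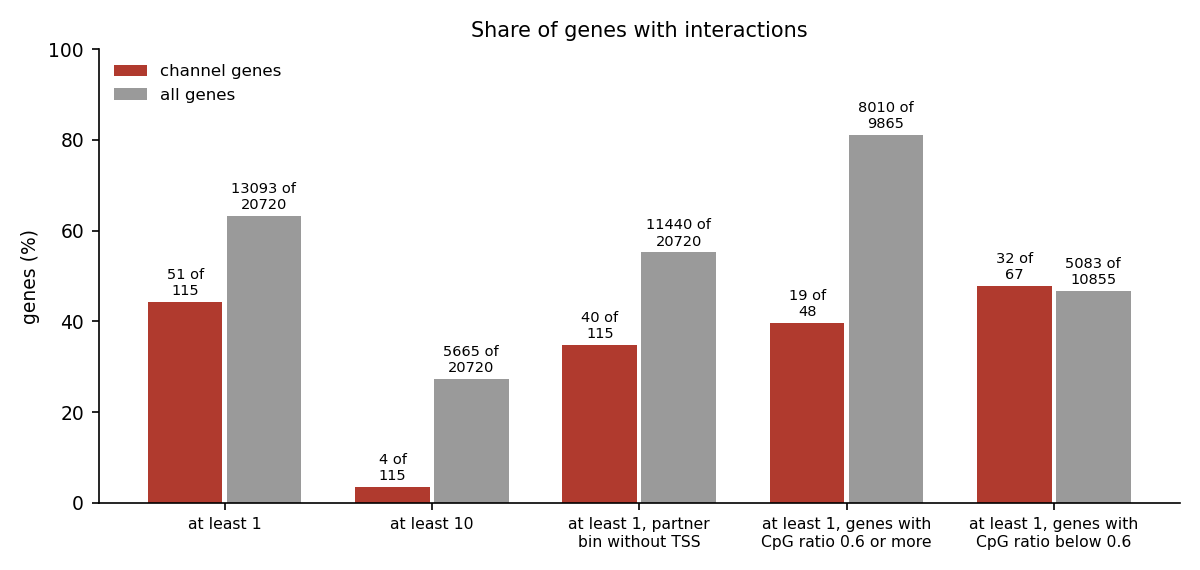
Bars give the percent of genes with interactions among the channel genes and among all autosomal protein-coding genes, with the numbers of genes above each bar. The channel genes stood at 39.6% against 81.2% in the CpG-rich class and at 47.8% against 46.8% in the CpG-poor class.

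Channel genes with and without interactions also differed in their surroundings. Those with interactions had a median of 19 protein-coding genes within 500 kb and a median length of 21.5 kb. Those without had 7 neighbours and a length of 83.7 kb. All genes had medians of 16 neighbours and 17.6 kb. What gene density and length contribute to the counts was not tested. Sites of MboI, the enzyme used to cut the chromatin, were counted only in the bin of each gene's outermost start. The median was 12 GATC sites for channel genes and 12 for all genes, and none of these channel bins lacked one. Channel genes with interactions had a median of 13 sites (lowest 7), and those without had 11.5 (lowest 2). What cut sites contribute to the counts was not tested.

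**Figure D2:**
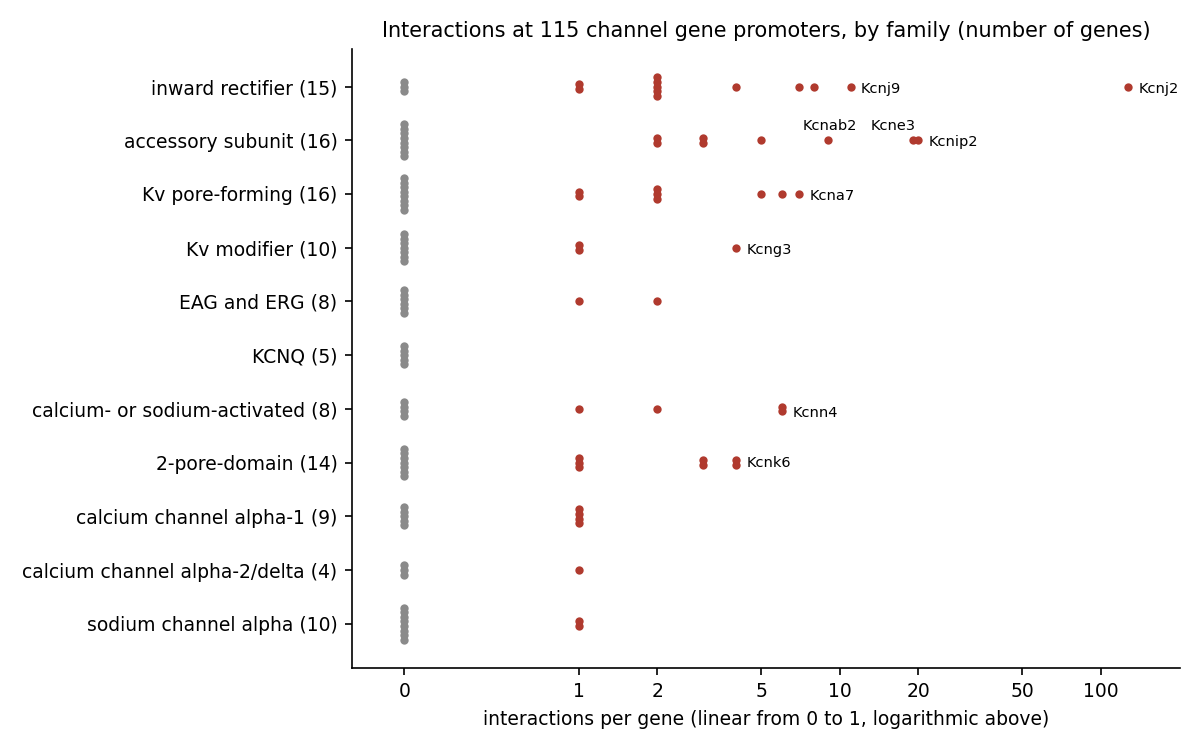
Each point is 1 channel gene, placed by its number of interactions (linear from 0 to 1, logarithmic above) within its family, and grey points are genes listed at 0. Kcnj2 stands alone at 127, no other gene exceeds 20, and all 5 KCNQ genes are at 0.

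Kcnj2, which encodes a strong inward rectifier that holds the resting potential near that of potassium, had 127 interactions. This was 41.6% of all channel interactions, and 24 of the 20720 genes had more. The gene lies at chr11:111066164-111076821 on the plus strand (ENSMUSG00000041695.2), and its single promoter bin, chr11:111065001-111070000, held no other protein-coding start. Within 500 kb it had 1 neighbouring protein-coding gene. This was Kcnj16, another inward rectifier gene with its start 98 kb upstream, which had 1 interaction. Map2k6, a MAP kinase kinase further upstream, had 5, and Sox9, the next protein-coding gene downstream at 1716 kb, was listed at 0.

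Contacts of Kcnj2 ran to both sides of the gene: 63 upstream and 64 downstream, at 15 to 750 kb (median 380 kb). The authors' clusters grouped them into 15, and 3 clusters held 98 of them. The leading cluster, 630 to 330 kb upstream, held 46 interactions. The next, 135 to 320 kb downstream, held 29, and the third, 340 to 470 kb downstream, held 23. Only 8 upstream contacts lay nearer to the promoter than the leading cluster.

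The observed counts at Kcnj2 lay between 10 and 315 (median 38), and the ratios of observed to expected between 2.09 and 18.6 (median 4.09). The highest count, 315, was with the bin 15 kb downstream, where the model expected much of it (ratio 2.33). The highest ratios lay far away: 18.6 at 500 kb upstream (106 read pairs), 16.9 at 525 kb (92) and 16.7 at 490 kb (104). The highest downstream ratio was 10.2, at 380 kb (81 read pairs). A ratio of 8 or more was reached by 14 interactions of Kcnj2 and by 3 of all other channel genes.

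**Figure D3:**
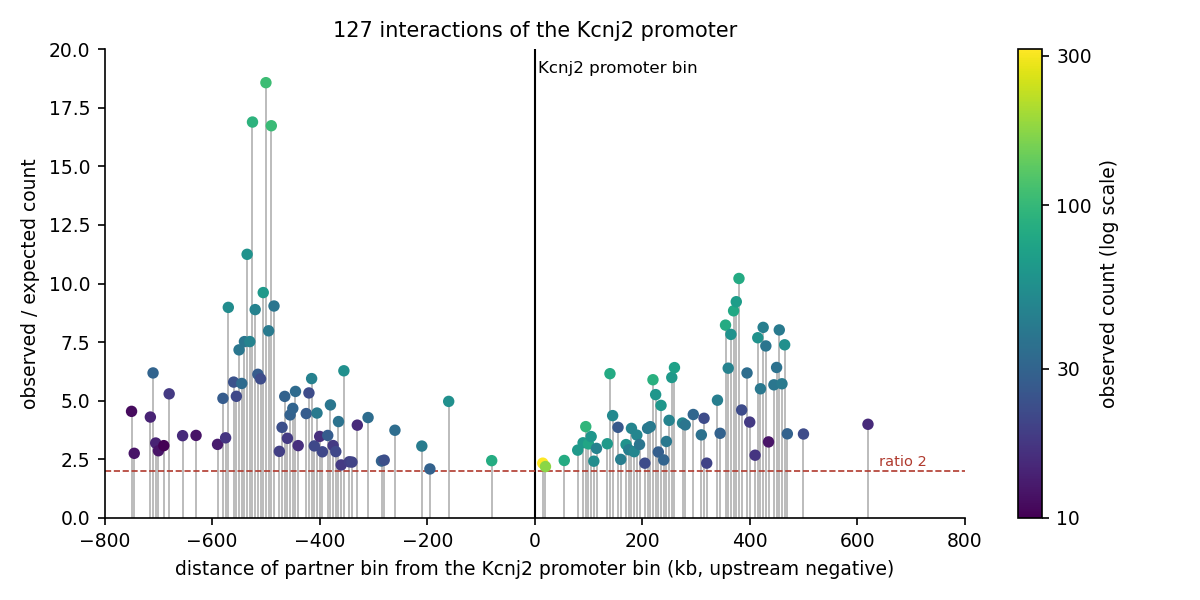
Each point is a partner bin of the Kcnj2 promoter, by signed distance in kb and ratio of observed to expected count, coloured by observed count, with the dashed line at the lowest ratio the list can hold. Ratios peak at 18.6 about 500 kb upstream and at 10.2 about 380 kb downstream.

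No partner of Kcnj2 was the promoter bin of another protein-coding gene. Of the 127 partner bins, 113 were intergenic, 8 held an exon and 6 an intron, and 11 of these 14 genic bins belonged to Map2k6. Starts of the noncoding genes Gm11682 and Gm11675 lay in 2 partner bins, 525 kb upstream (ratio 16.9) and 210 kb downstream (ratio 3.82). The 3 bins of highest ratio lie beyond the 3′ end of Map2k6, which ends at position 110525522. Of the partner bins, 64 had no other interaction in the list. Other protein-coding promoters reached 7 of them. Among these, the bin 530 kb upstream was the only contact of Kcnj16, with 9 read pairs and a ratio of 3.27, against 47 read pairs and 7.52 for Kcnj2.

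Stretches of the 3 bins of highest ratio are shown because no other contact of a channel gene had a higher ratio, although others had higher counts. They are read from GRCm38.p6 on the plus strand at chr11:110568424-110568523, chr11:110540829-110540927 and chr11:110575863-110575962. Capitals mark 1 match per stretch. In the first and the last it is to the consensus of PU.1, the macrophage lineage factor (GAGGAAGT or its reverse complement). In the other it is to that of AP-1 (TGANTCA). A further AP-1 match near the end of the 525-kb stretch is left in small letters, and that whole bin held 5.
Kcnj2 partner at 500 kb: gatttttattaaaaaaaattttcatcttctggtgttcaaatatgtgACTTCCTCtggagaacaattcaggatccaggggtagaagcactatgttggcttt
Kcnj2 partner at 525 kb: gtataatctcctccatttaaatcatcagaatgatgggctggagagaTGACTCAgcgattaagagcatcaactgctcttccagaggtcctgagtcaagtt
Kcnj2 partner at 490 kb: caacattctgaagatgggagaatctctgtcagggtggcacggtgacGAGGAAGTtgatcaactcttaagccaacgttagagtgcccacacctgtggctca

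Such matches were as frequent elsewhere. With both strands searched, a PU.1 match lay in 27.6% of the 127 partner bins of Kcnj2 and in 26.8% of all 479062 autosomal bins, and an AP-1 match in 78.0% and 78.4%. RefSeq promoter windows were also searched, with 115 channel windows that came from only 85 of the channel genes. The PU.1 consensus occurred in 0 of these 115 windows against 3.20% of 32851 windows of all genes. The AP-1 consensus occurred in 4 (3.48%) against 7.81%. Absence of a match says only that these letters are not in the window.

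Of the 15 inward rectifier (Kcnj) genes, 12 (80.0%) had interactions, against 63.2% of all genes. They had 169 in all and 42 without Kcnj2, and Kcnj3, Kcnj5 and Kcnj15 were listed at 0. Kcnj9, a G protein-gated channel of neurons, had 11. These included the promoters of Dcaf8 at 180 kb (122 read pairs, ratio 3.77), Pex19 at 200 kb (78, ratio 3.86) and Cd84, a leukocyte receptor gene, at 490 kb (18, ratio 5.20). Another 3 of its partner bins, 25 to 35 kb away, lay within Kcnj10, the glial inward rectifier gene, which itself had 1 contact, also with Dcaf8. The Dcaf8 bin had 44 interactions in the list, more than either channel promoter.

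Kcnj6, a further neuronal G protein-gated channel, had 8 interactions, and all 8 lay within its own gene, 155 to 220 kb downstream of the start. Their counts ran from 18 to 40 and their ratios up to 5.18. None of these 8 partner bins had any other interaction. Kcnj11, the pore of the ATP-sensitive potassium channel, had 7, all in 1 cluster 65 to 125 kb upstream over Abcc8, which encodes the regulatory subunit of the same channel, and Ush1c. The Abcc8 promoter bin itself gave 26 read pairs (ratio 2.65). Kcnj14 had 4, all with promoters: Cyth2 at 10 kb (289 read pairs, ratio 2.19), Rpl18 and Sphk2 at 105 kb (96, ratio 3.26), Dbp and Sphk2 at 115 kb (36, ratio 2.37) and Akt1s1 at 970 kb (12, ratio 3.33), the longest channel contact. Kcnj1 reached a ratio of 8.67 at 550 kb, with 22 read pairs.

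Accessory subunits, which bind pore-forming subunits and change their trafficking or gating, had 63 interactions at 8 of 16 genes, more than the inward rectifiers without Kcnj2. Kcnip2, a calcium-binding partner of Kv4 channels, had 20, all 80 to 245 kb upstream. They ran across Armh3 to the promoters of Armh3, Hps6, Ldb1 and Pprc1. The Hps6 promoter gave the highest count, 70 read pairs at 190 kb (ratio 3.95), and an intergenic bin at 200 kb the highest ratio, 5.75, with 15 read pairs. The gene's outermost start alone kept 2 of the 20.

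Kcne3, a single-span subunit that alters KCNQ and Kv channels, had 19, of which 13 lay upstream and 6 downstream. Its nearest partner, 15 kb upstream in Lipt2, had the highest count (186 read pairs, ratio 2.63). The promoters of Pold3 at 55 kb (126, ratio 2.10) and Chrdl2 at 170 kb (32, ratio 2.47) were also partners. Its highest ratio, 8.04, was with a bin in Fam168a 550 kb downstream, with 18 read pairs. Kcnab2, a cytosolic beta subunit of Kv1 channels, had 9, but 8 of them came from a bin it shares with Nphp4 and cannot be assigned to either gene. The remaining one joined an unshared start to the promoter of Rpl22, a ribosomal protein gene, at 120 kb (216 read pairs, ratio 3.91). Kcnip3 had 5, and Kcne2, Kcnmb3, Kcnab3 and Kcnrg had 2 or 3 each.

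Pore-forming Kv genes of the Kcna to Kcnd groups had 26 interactions at 8 of 16 genes. Kcna7, a muscle channel, had 7 in 7 clusters, from 80 to 275 kb, with the highest ratio (5.79, 39 read pairs) at an intergenic bin 195 kb away. Kcna2, a neuronal delayed rectifier, had 6. Intergenic bins 150 to 205 kb upstream held 5 of these, the strongest at 165 kb (51 read pairs, ratio 4.57). The sixth joined the Kcna2 promoter to that of Kcnc4, another Kv gene, 355 kb away, with 20 read pairs and a ratio of 2.37. It was the single contact between promoters of 2 channel genes. Kcnd3, the pore of a transient outward current, had 5, all intergenic and upstream.

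The remaining voltage-gated pores had few. Kv modifier genes, whose products alter other Kv subunits, had 6 interactions at 3 of 10 genes: Kcng3 had 4, Kcns2 had 1 and Kcns1 had 1 of 8 read pairs at 865 kb (ratio 3.83). EAG and ERG genes had 3 at 2 of 8. Of these, Kcnh1 had a single contact with a ratio of 7.95 (18 read pairs, 520 kb, in Hhat) and Kcnh6 contacted the promoter of Mrc2, a mannose receptor family gene, at 715 kb (12, ratio 5.47). KCNQ genes had none. Calcium channel alpha-1 genes had 1 each at 4 of 9 genes (Cacna1a, Cacna1d, Cacna1g and Cacna1i), and sodium channel genes 1 each at Scn4a and Scn10a of 10. The calcium channel alpha-2/delta genes, accessory subunits that are not among the voltage-gated pores, had 1, at Cacna2d4. In all, 19 of the 59 voltage-gated pore genes (32.2%) had an interaction, and 32 of the other 56 (57.1%), against 63.2% of all genes.

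Several of these single contacts met a partner bin with far more interactions than the channel bin. The partner of Cacna1i, the promoter of Tnrc6b at 425 kb, had 107 in the list, and that of Cacna2d4 had 81. Scn4a contacted the promoter bin of Milr1 and Pecam1 at 405 kb (14 read pairs, ratio 3.08), which had 23. Apart from Kcnj2, the partner bin had more interactions than the channel bin in 82 of 179 entries and fewer in 94.

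The class of calcium- or sodium-activated channel genes, formed by symbol, had 15 interactions at 4 of 8 genes. Kcnn4, the intermediate-conductance channel of blood cells, had 6. Those with its own gene body were among the highest channel counts, 465 read pairs at 15 kb (ratio 3.34) and 368 at 10 kb (ratio 2.69). Others were in Plaur, the urokinase receptor gene, at 100 kb (82, ratio 3.39), at Zfp111, and in Pou2f2 at 755 kb (14, ratio 4.48). Kcnn1, a small-conductance channel of neurons, had 6, among them an intergenic bin at 925 kb with a ratio of 6.97 but only 8 read pairs. Kcnn3 had 2, of which a bin in its own body at 145 kb had the highest ratio outside Kcnj2 (9.39, 58 read pairs). Kcnma1, the large-conductance channel, was listed at 0. Kcnu1, placed in this class by its symbol, had 1 interaction, from a bin it shares with Ash2l. That contact cannot be assigned to either gene.

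The 2-pore-domain channels, which carry background potassium leak, had 17 interactions at 7 of 14 genes. Kcnk6, whose channel is known for potassium efflux in macrophages, had 4. These were with the promoter bin of Psmd8 and Catsperg1 at 50 kb (212 read pairs, ratio 2.19), an exon bin of Psmd8 at 55 kb (222, ratio 2.12), the promoter of Ryr1, a calcium release channel, at 105 kb (89, ratio 3.34) and an exon bin of Ryr1 at 195 kb (28, ratio 2.76). Kcnk13, a channel known from microglia, had 1, with an intergenic bin 145 kb downstream (91 read pairs, ratio 6.27) that had 27 interactions in the list. Kcnk4 had the highest count of any channel contact, 629 read pairs with the promoter bin of Bad and Gpr137 10 kb away, at a ratio of 2.12. Kcnk9 had 4, up to 540 kb away.

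**Figure D4:**
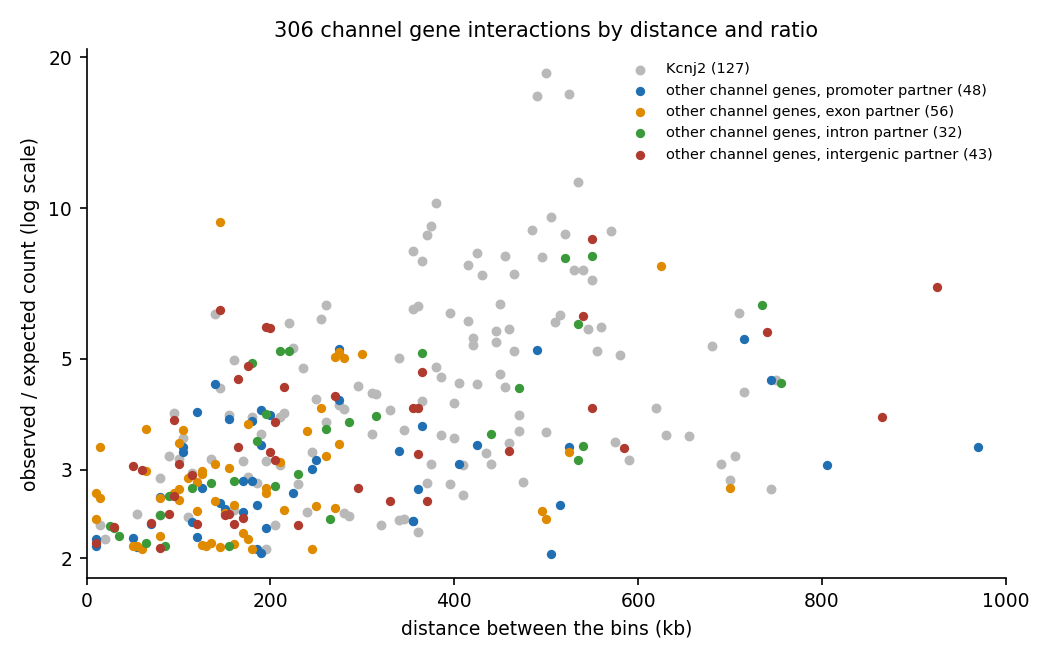
Each point is an interaction of a channel gene, by distance in kb and ratio of observed to expected count on a log scale, with Kcnj2 in grey and the other genes coloured by what the partner bin holds. The ratios above 10 all belong to Kcnj2.

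Set beside all 148313 interactions with a promoter bin, those of the channel genes without Kcnj2 were close in ratio, with medians of 2.97 and 2.99, and in distance, with medians of 182 and 190 kb. Their median count was 25 against 34, and 19.1% against 23.4% had a ratio of 4 or more. At Kcnj2, 51.2% did. Partner bins were promoters in 48 of the 179 entries without Kcnj2 (26.8%), against 13.4% of all promoter entries, and intergenic in 43 (24.0%). For 11 genes every contact was with a promoter bin. With Kcnj2 included, the promoter share was 15.7% of 306 entries and the intergenic share 51.0%.

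Of the 7 channel genes described in macrophages or microglia, 4 (57.1%) had interactions, against 63.2% of all genes: Kcnj2 127, Kcnn4 6, Kcnk6 4 and Kcnk13 1. Kcna3 and Kcna5, the Kv channels known from these cells, and Kcnma1 were listed at 0. With starts up to 2500 bp outside a bin also counted, Kcnk6 had 19, Kcnk13 had 6 and Kcna5 had 1. Of 33 genes best known from neurons, heart or skeletal muscle, 13 had interactions (39.4%), with a median of 0 and with Kcnj9, Kcnj6 and Kcnj11 leading. Among 49 other channel genes and subunits outside the rule, 37 had interactions (75.5%), with a median of 4 against 2 over all genes. The store-operated calcium entry genes Stim2, Stim1 and Orai1 had 67, 37 and 21, the calcium release channel Itpr1 had 59, the calcium channel beta subunit Cacnb1 had 48, Trpv2 had 47, the volume-regulated anion channel subunit Lrrc8a had 40, the ATP-gated P2rx7 had 21 and the proton channel Hvcn1 had 16. Close relatives of some of these had few or none: Itpr2, Itpr3 and Cacnb2 were listed at 0, Cacnb4 had 2 and Orai3 had 3.

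Many channel genes are long, and bins inside them were contacted by promoters of other genes. Bins of the gene body without a protein-coding start had 436 such interactions with promoters outside the channel set. Bins with starts of noncoding genes were kept. In this way 52 of the 115 channel genes (45.2%) were reached, against 56.7% of all genes. Among genes of at least 50 kb, it was 31 of 58 channel genes (53.4%) against 76.1% of all. Of the 52 genes, 23 were listed at 0 for their own promoters. Cacna1d, a calcium channel gene, had 51, of which 32 came from Dcp1a, a messenger RNA decapping gene, and its own promoter had 1. Kcnq1, a cardiac and epithelial channel gene in an imprinted domain, had 50 and none of its own. The imprinted neighbours Cdkn1c and Slc22a18 gave 25 and 18 of these, with ratios up to 12.6 (60 read pairs, 305 kb) and 12.5 (36 read pairs, 330 kb). Cacna1a had 43, Kcnab2 had 30, of which 13 came from Rpl22, and Kcnab1 had 14, of which 12 came from Tiparp. In Kcnd3, a bin 290 kb from the promoter of Wdr77 had 100 read pairs and a ratio of 7.92. Kcnj2, with 127 at its promoter, had none of this kind. It is a short gene (chr11:111066164-111076821) with 1 protein-coding neighbour within 500 kb. That neighbour, Kcnj16, belongs to the channel set, so contacts from its promoter were not counted here. What gene length and neighbours contribute to these counts was not tested.

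**Figure D5:**
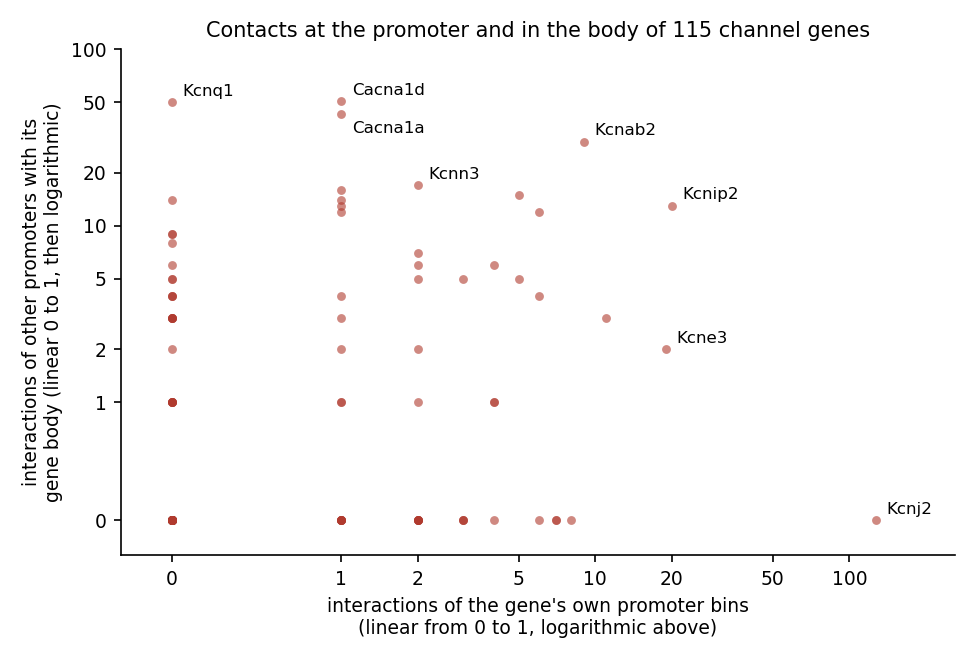
Each point is a channel gene, by the interactions of its own promoter bins and by those of other genes' promoters with its gene body (both axes linear from 0 to 1, logarithmic above). Kcnq1 lies at 0 and 50, Cacna1d at 1 and 51, and Kcnj2 at 127 and 0. Gene-body counts were not adjusted for gene length.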

How the data were processed

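H3K4me3 HiChIP of C57BL/6J BMDMs comprised 2 basal and 2 IL-4 samples, grouped by their titles. Tools named in the submitters' processing notes are Bowtie2 and bedtools, and the build is mm10. By the study's methods, the authors called interactions with MAPS at 5000 bp on merged reads, anchored on H3K4me3 ChIP-seq peaks; the MAPS version is not given in the sources used here. MAPS models counts from distance, cut sites, GC content and mappability, so a ratio depends on that model. The deposited values are the count of read pairs per bin pair and the expected count, a model score, both used as deposited. Deposited false discovery rates are the authors' adjusted p-values and were at most 0.01. All ratios were at least 2 and all counts at least 5. The cluster label and size score were used as deposited, and the authors' −log10 p per cluster was not used. The total of observed counts, 12385062, is not a depth. The peak list was not used here.

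Positions are mm10, counted from 1, and all bins lay within GRCm38.p6 chromosomes. A promoter bin held a start site (TSS) of a protein-coding transcript in GENCODE M21 basic, and a gene was given every interaction that had a promoter bin of that gene at either end. Bins without such a start were classed by whether they touched an exon, only introns or no protein-coding gene. CpG ratios were taken from 250 bases before to 50 after the outermost TSS. Counting was checked on 1 simulated list of planted interactions, each with a promoter in its first bin only. Counting at the other bin and between promoters was not covered by that check. With 1 pooled list no test was made and leaving out replicates was not possible.

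The members, gene lists and tests were chosen with earlier results of these data known. Genes described in full were the 10 with the most interactions with ties, the macrophage and microglia list, the genes of the 5 highest counts, 5 highest ratios and 3 longest distances, and pairs of channel promoters; others named were chosen after their values were seen. Alternatives changed the thresholds, the unit counted, the promoter definition and the members. Computation used Python 3.11.15, numpy 2.4.6, pandas 2.3.3, scipy 1.17.1 and matplotlib 3.10.9.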

Additional observations from a re-analysis of the deposited data

How the results depend on the processing

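The count of 51 channel genes with an interaction fell to 24 at ratios of at least 4, to 33 when each cluster counted once, by its summit bin pair, and to 19 when only voltage-gated pore genes were kept. The 305 interactions became 173 at a false discovery rate under 1e-06, 99 at ratios of at least 4, 73 with 1 per cluster, 517 with starts within 2500 bp of a bin, 40 for voltage-gated pore genes and, in an alternative chosen after seeing the data, 178 without Kcnj2. The other alternatives, including the one also chosen after seeing the data that kept only partner bins without any start, left 34 to 61 genes. Under the alternatives that also change the background, the share of all genes ran from 42.3% to 70.4%, and the share of channel genes was below it in each. Of 180 values of the 20 genes described in full, 118 stayed within 1.5 times. The 4 leading genes fell when each cluster counted once: Kcnj2 from 127 to 14, Kcnip2 from 20 to 2, Kcne3 from 19 to 7 and Kcnj9 from 11 to 2. At ratios of at least 4, Kcnj2 had 65, Kcnip2 had 2, Kcne3 had 5 and Kcnj9 had 1. With wider promoters, Kcnn3 went from 2 to 23 interactions, Kcnk6 from 4 to 19, Kcnk13 from 1 to 6 and Kcnh4 from 0 to 16, and Kcna5 and Kcnq1, also listed at 0, had 1 each. Depth per sample is unknown, so a gene listed at 0 may have contacts below detection.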
